A study of Homo sapiens with 8 samples.

Results

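The genes described here are the Notch receptors NOTCH1, NOTCH2, NOTCH3 and NOTCH4, the Notch ligands JAG1, JAG2 and DLL1, and the Notch target genes HES1, HEY1 and HEYL. They were named as a family, with a rise of HEYL already noted in these data, so they were selected on the comparison of the treated and vehicle libraries. Of the 10 genes named, 8 were found by symbol in a table of 25603 genes, and NOTCH4 and DLL1 were not analysed here. RNA-seq had been run on HepG2, an established cell line from a human hepatocarcinoma. The cells received UNC1999 and valemetostat tosylate (spelled Valmetostat Tosylate in the labels), both inhibitors of EZH1 and EZH2, at 1 µM each for 4 days (EZHi, 4 libraries), or the vehicle, 0.2% DMSO by the labels (the methods of the study name a lower concentration), for the same time (4 libraries). EZH1 and EZH2 are the enzymes of polycomb repressive complex 2 (PRC2), which methylate lysine 27 of histone H3 and hold genes in a repressed state. The comparison asks which genes change in expression when both enzymes are inhibited in a liver cell line, and both inhibitors were given together, so neither can be judged alone.

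Notch receptors are single-pass membrane proteins that bind Jagged or Delta-like ligands on a neighbouring cell. Binding leads to cleavage of the receptor, first by ADAM proteases and then by gamma-secretase, and the released intracellular domain joins the DNA-binding protein RBPJ and a Mastermind coactivator to switch on genes of the HES and HEY families, which encode transcriptional repressors. In the liver the pathway is known for its part in bile duct formation, and inherited defects of JAG1 or NOTCH2 cause Alagille syndrome, a disease with too few bile ducts.

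Promoter sequences are shown first for a pair of target genes and for the ligand that differed in the opposite direction, because RBPJ binds the hexamer TGGGAA and the regulation of HES genes through it is textbook knowledge. The windows run from 250 bases before to 50 bases after the annotated start in RefSeq (GRCh38.p14). Of the 10 genes named, 8 had one, NOTCH4 included, and HEY1 and DLL1 had none. Capitals mark TGGGAA, or TTCCCA where the hexamer lies on the opposite strand, and each sequence is written 5′ to 3′ on the strand of its gene. The HES1 window is chr3:194135898-194136197 (plus strand), the HEYL window chr1:39639594-39639893 (minus strand) and the JAG1 window chr20:10673950-10674249 (minus strand).
HES1: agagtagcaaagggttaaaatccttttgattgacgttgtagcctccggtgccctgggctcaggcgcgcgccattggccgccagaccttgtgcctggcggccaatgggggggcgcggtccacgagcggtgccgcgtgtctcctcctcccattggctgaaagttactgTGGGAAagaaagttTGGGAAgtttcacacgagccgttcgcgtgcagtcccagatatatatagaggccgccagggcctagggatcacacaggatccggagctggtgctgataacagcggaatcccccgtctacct
HEYL: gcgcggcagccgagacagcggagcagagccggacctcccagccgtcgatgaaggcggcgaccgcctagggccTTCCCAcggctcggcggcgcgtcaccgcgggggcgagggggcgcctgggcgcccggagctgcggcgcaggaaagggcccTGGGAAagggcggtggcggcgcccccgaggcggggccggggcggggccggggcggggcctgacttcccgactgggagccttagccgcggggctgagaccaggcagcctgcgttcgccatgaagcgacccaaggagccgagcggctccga
JAG1: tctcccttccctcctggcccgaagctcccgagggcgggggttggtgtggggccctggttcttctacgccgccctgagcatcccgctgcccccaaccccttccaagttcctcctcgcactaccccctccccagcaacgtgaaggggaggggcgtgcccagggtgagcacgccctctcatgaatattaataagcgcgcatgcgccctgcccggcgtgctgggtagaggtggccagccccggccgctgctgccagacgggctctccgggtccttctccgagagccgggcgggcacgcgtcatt

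The HES1 window held 2 copies of TGGGAA, on the strand of the gene, from 84 to 79 and from 70 to 65 bases before the start. The HEYL window also held 2 copies, on the opposite strand from 178 to 173 and on the strand of the gene from 99 to 94 bases before the start, so the copies lie farther apart than in HES1. No copy was found in the windows of JAG1, JAG2, NOTCH1, NOTCH2, NOTCH3 or NOTCH4. Of 35116 windows of the same length, 24.0% held at least 1 copy on either strand and 3.80% held at least 2. The letters CACNAG, which HES repressors bind, were also searched on both strands, and 38.0% of the windows held them. They had 4 matches in the HES1 window, 2 in that of NOTCH1 and 1 each in those of NOTCH2, NOTCH3 and NOTCH4. No match was found in those of HEYL, JAG1 and JAG2. These letter matches describe the windows and do not show that a factor binds there.

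The windows also differed in CpG dinucleotides, which are dense in CpG islands, a type of promoter that PRC2 often occupies. JAG2 had 46, NOTCH1 42, HEYL 41, NOTCH3 37 and NOTCH2 33, against a median of 14 over the windows. JAG1, with 24, and HES1, with 21, lay closer to that median, within an interquartile range of 4 to 28. NOTCH4, with 5, lay below the median, and its window had more CpG than 29.6% of the windows. The window of JAG2 had more CpG than 97.1% of the windows and that of JAG1 more than 66.1%.

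Expression is given below as the deposited value, a log2 level from which the authors had removed the effect of transcript length, and an estimated FPKM (fragments per kilobase of transcript, scaled to library size) was calculated from it. A difference is the EZHi mean minus the vehicle mean on the log2 scale, with the SE from a limma fit over 20153 genes, and a gene was called where the adjusted p of that fit was under 0.05. Because the family was selected on this comparison, the differences of its members are given as a description without p-values. Among the 9 hepatocyte markers examined, the lowest was FGB, at an estimated 107 FPKM in vehicle, and the highest was AFP, at 15863 FPKM. Of these 9 markers FGB was called higher in EZHi and the others were not called. With the replicate number as a block in the limma fit, APOA1 and APOB were also called higher (adjusted p = 0.0081 and 0.0016). ALB was called lower by that fit (adjusted p = 0.0314, difference -0.28). EZH1 and EZH2 mRNA differed little between the groups (differences of -0.07 and -0.06, limma adjusted p = 0.573 and 0.806), but mRNA does not report enzyme inhibition, and no histone mark was analysed here.

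In vehicle cells the ligand JAG1 had the highest level of the family and the target HEYL the lowest. JAG1 stood at 11.15 ± 0.07 (SD, n = 4), an estimated 88.8 FPKM, and was followed by NOTCH2 at 9.28 ± 0.04, HES1 at 8.47 ± 0.22 and HEY1 at 8.12 ± 0.19. NOTCH1 (5.01 ± 0.45), NOTCH3 (4.65 ± 0.14), JAG2 (3.24 ± 0.20) and HEYL (2.05 ± 0.33, 0.162 FPKM) were far lower. HES1 and HEY1 overlapped over the libraries (difference within a library 0.36 ± 0.37, HES1 higher in 3 of 4), and so did NOTCH1 and NOTCH3 (0.35 ± 0.53, NOTCH1 higher in 3 of 4), whereas the other 5 pairs of neighbours did not. This order depends in part on the length used. With the longest transcript in place of the mean length, NOTCH2 (mean length 2219 bases, longest 11425) moved from rank 2 to rank 4, at 6.92, and the ranges of JAG2 and HEYL overlapped.

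**Figure D1:**
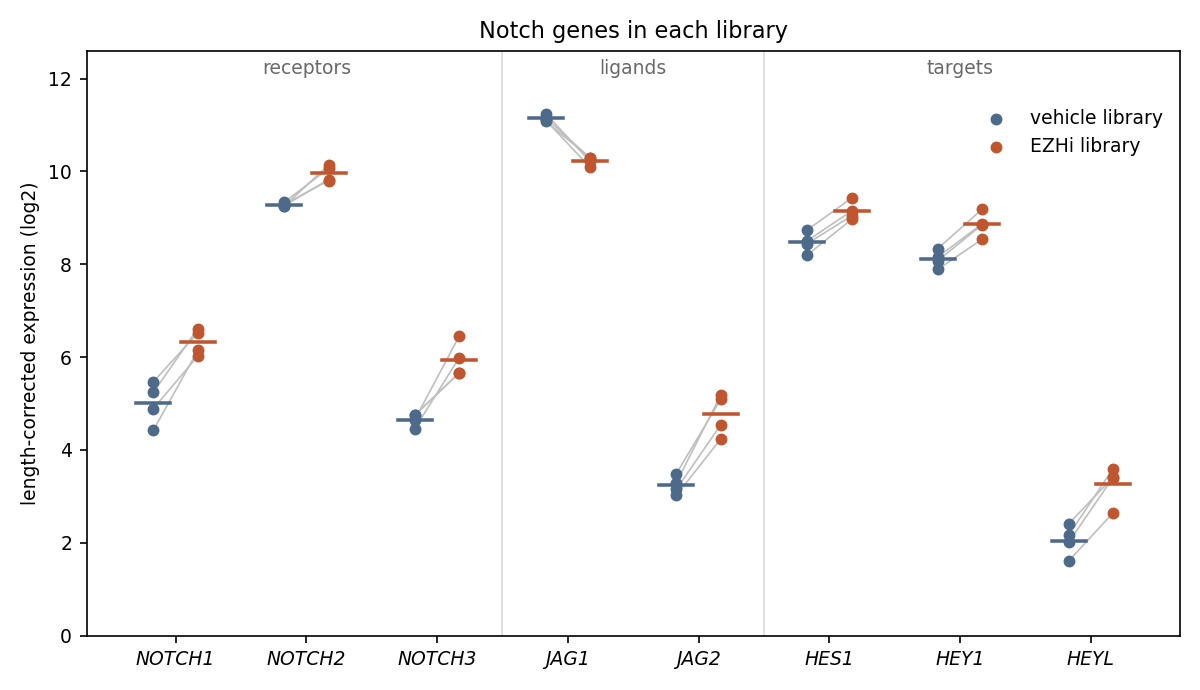
Length-corrected expression (log2, vertical axis) of the 8 genes in each library, with vehicle in blue and EZHi in orange, horizontal bars for group means and grey lines joining libraries of the same replicate number. JAG1 is lower in EZHi, from 11.15 to 10.22, and the other 7 genes are higher, with no overlap between the groups for any of the 8.

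After EZH1/2 inhibition 7 of the 8 genes were higher and 1, JAG1, was lower. In bulk RNA a change in the number of cells that express a gene and a change in the RNA per cell cannot be told apart. Each was called by the fit over all genes, in which 8.85% of the genes tested were called higher and 4.27% lower, and nothing is read from this count, since the family was chosen on this contrast. The vehicle and EZHi ranges did not overlap for any of the 8, as held for 10.7% of the genes tested in the higher and 7.93% in the lower direction. The median difference of the 8 genes was 0.98, and that of all genes tested was -0.0077. With the replicate number as a block the same 7 were called higher and the same 1 lower, against 14.9% and 15.1% of the genes tested. The family kept its calls and directions in each of the 3 other scalings, and its 8 calls in each of the 8 fits that left out 1 library.

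Among the receptors, the scarce NOTCH1 and NOTCH3 differed more than the abundant NOTCH2. NOTCH1 (ENSG00000148400, chr9:136494433-136546048, minus strand, GRCh38) had vehicle values of 4.89, 5.47, 4.43 and 5.24 in replicates 1 to 4 and EZHi values of 6.03, 6.52, 6.14 and 6.61. Each EZHi library lay above each vehicle library, with 0.56 between the nearest ones. The difference was 1.32 (SE 0.23), a 2.50-fold higher level, or 1.26 against 3.13 FPKM, and it ranged from 1.05 to 1.72 over the 4 replicate pairs.

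NOTCH3 (ENSG00000074181, chr19:15159038-15200995, minus strand) had values of 4.75, 4.46, 4.65 and 4.75 in vehicle and of 5.67, 5.99, 6.46 and 5.66 in EZHi. The vehicle libraries were close together, and the EZHi libraries were spread more widely, replicate 3 being the highest. The difference was 1.29 (SE 0.18), or 2.44-fold, from 0.984 to 2.40 FPKM.

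NOTCH2 (ENSG00000134250, chr1:119911553-120100779, minus strand), the main receptor transcript of these cells, had vehicle values of 9.26, 9.29, 9.25 and 9.34. In EZHi it stood at 9.82, 9.80, 10.14 and 10.07. The vehicle libraries were almost equal, and EZHi replicates 3 and 4 were higher than replicates 1 and 2. The difference was 0.67 (SE 0.09), a 1.60-fold higher level, which took NOTCH2 from 24.3 to 38.8 FPKM. NOTCH2 has near-identical partial copies, the NOTCH2NL genes, between which reads may be split or lost. The highest of the 4 in the table, NOTCH2NLA, did not exceed 3.44 in any library, so the NOTCH2 level itself is uncertain to the extent that its reads were discarded as ambiguous.

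Added together, the 3 receptors stood at 26.6 ± 0.94 FPKM (SD, n = 4) in vehicle and 44.7 ± 5.03 FPKM in EZHi, a ratio of 1.68. NOTCH2 made up 91.4% ± 1.08 of this sum in vehicle and 87.3% ± 1.49 in EZHi, without overlap. The share of NOTCH3 was 3.71% ± 0.36 in vehicle and 5.50% ± 1.18 in EZHi, also without overlap, and that of NOTCH1 was 4.86% ± 1.33 and 7.16% ± 1.49, with overlapping ranges. When the longest transcripts were used instead, the NOTCH2 share was lower in both groups, 80.5% and 72.7%, and again did not overlap.

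The ligands differed in opposite directions. JAG1 (ENSG00000101384, chr20:10637684-10673999, minus strand), the ligand whose loss underlies most cases of Alagille syndrome, had values of 11.08, 11.16, 11.25 and 11.11 in vehicle. The EZHi libraries stood at 10.29, 10.29, 10.22 and 10.09. The spread within each group was small against the distance between them, and each of the 4 EZHi libraries was below each vehicle library. The difference was -0.93 (SE 0.07), a 1.90-fold lower level (88.8 against 46.6 FPKM), and over the replicate pairs it ranged from -1.03 to -0.79. An antisense RNA (ENSG00000270792) shares 306 of the 9298 exonic bases of JAG1, and the counting ignored strand, so reads from that stretch cannot be assigned to either gene.

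JAG2 (ENSG00000184916, chr14:105140982-105168824, minus strand), the second Jagged ligand, had values of 3.49, 3.30, 3.02 and 3.15 in vehicle and of 5.09, 5.19, 4.24 and 4.54 in EZHi. EZHi replicates 1 and 2 were well above replicates 3 and 4, and each was above the highest vehicle library. Its difference, 1.52 (SE 0.21) or 2.88-fold, was the largest of the 8 genes and started from a low level, 0.369 FPKM in vehicle and 1.06 FPKM in EZHi. These levels correspond to about 29.1 and 83.8 normalised reads. JAG2 shares 469 exonic bases with a noncoding RNA on the same strand (ENSG00000257622), which leaves the reads of that stretch ambiguous.

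The sum of JAG1 and JAG2 was 89.2 ± 4.42 FPKM in vehicle and 47.8 ± 3.27 FPKM in EZHi, a ratio of 0.536, so that the Jagged sum was lower while the receptor sum was higher. The log2 distance from JAG2 up to JAG1 was 7.91 ± 0.26 in vehicle and 5.46 ± 0.40 in EZHi. JAG2 still made up a small part of the Jagged transcripts, 0.419% ± 0.075 in vehicle and 2.28% ± 0.57 in EZHi. With the longest transcripts these shares were 0.690% and 3.72%. The distance from JAG1 down to NOTCH2 was 1.87 ± 0.10 in vehicle and 0.26 ± 0.25 in EZHi, where their ranges overlapped. JAG1 stayed above NOTCH2 in each of the 4 EZHi libraries, and the order of all genes of the family by mean level was the same in both groups.

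**Figure D2:**
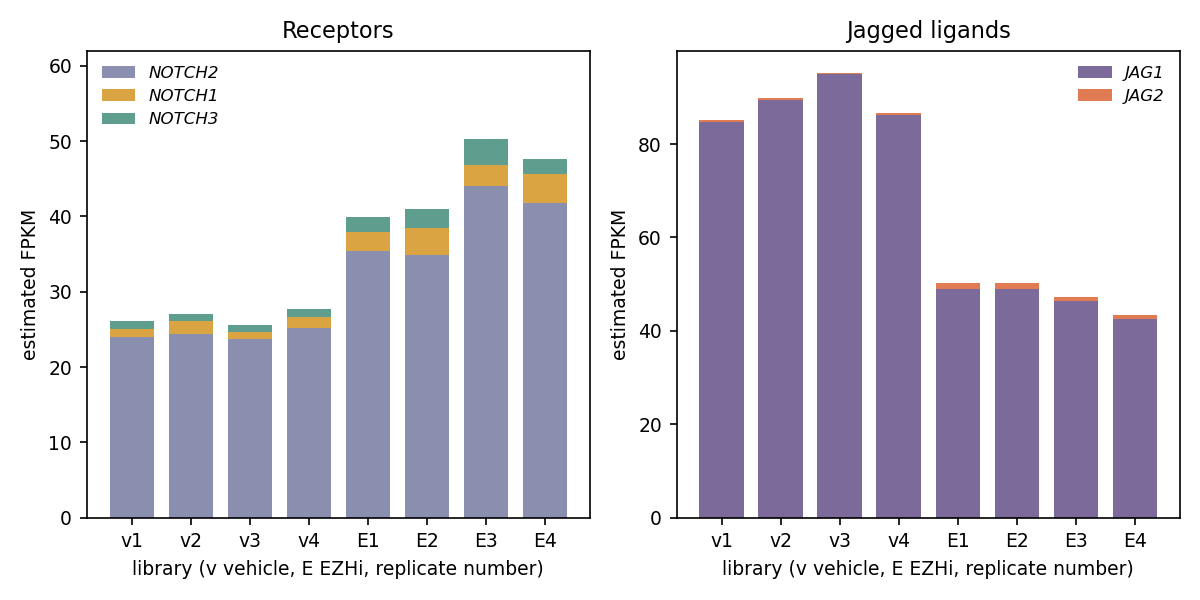
Stacked estimated FPKM (vertical axes, starting at 0) of the receptors (left) and of the Jagged ligands (right) in each library, v for vehicle and E for EZHi with the replicate number. The receptor sum averages 26.6 FPKM in vehicle and 44.7 FPKM in EZHi with NOTCH2 as its main part, and the Jagged sum averages 89.2 and 47.8 FPKM with JAG1 as its main part.

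The 3 target genes were higher in EZHi in each replicate pair. HES1 (ENSG00000114315, chr3:194136148-194138732, plus strand), the best-known direct target of the receptors, had values of 8.44, 8.74, 8.20 and 8.51 in vehicle and of 9.04, 9.42, 8.97 and 9.15 in EZHi. The groups were separated by 0.23, a distance smaller than the range within either group, yet the pairs differed by 0.60 to 0.77 (SD 0.072). Its difference was 0.67 (SE 0.13), or 1.59-fold, from 13.9 to 22.1 FPKM.

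HEY1 (ENSG00000164683, chr8:79762371-79767857, minus strand), which encodes a repressor that Notch induces in vessels and other tissues, had values of 8.16, 8.08, 8.34 and 7.89 in vehicle and of 8.87, 8.86, 9.19 and 8.54 in EZHi. As in HES1 the gap between the groups was narrow, 0.20, and the pairs lay close together, from 0.65 to 0.85. The difference was 0.75 (SE 0.14), or 1.68-fold, from 10.8 to 18.2 FPKM. Replicate 3 was the highest library of its group for HEY1 and the lowest for HES1, in vehicle and in EZHi. The distance from HEY1 up to HES1 was 0.36 ± 0.37 in vehicle and 0.28 ± 0.39 in EZHi, with overlapping ranges.

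HEYL (ENSG00000163909, chr1:39623435-39639643, minus strand), the third member of the HEY family, had vehicle values of 2.16, 2.41, 2.01 and 1.61. Its EZHi values were 3.60, 3.41, 3.41 and 2.64. Replicate 4 was the lowest of its group under both conditions, and EZHi replicate 4 stood 0.24 above the highest vehicle library. The difference was 1.22 (SE 0.22), or 2.33-fold, and the pairs ranged from 1.00 to 1.44. HEYL remained the least expressed gene of the family in EZHi, at 0.376 FPKM, and its levels correspond to about 16.9 and 39.2 normalised reads. The regularized logarithm behind the values shrinks differences of genes with so few reads, which may understate those of HEYL and JAG2. Selection on this comparison may in turn overstate them, and the net effect was not tested. The distance from HEYL up to HEY1 was 6.07 ± 0.30 in vehicle and 5.60 ± 0.29 in EZHi, with overlapping ranges.

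**Figure D3:**
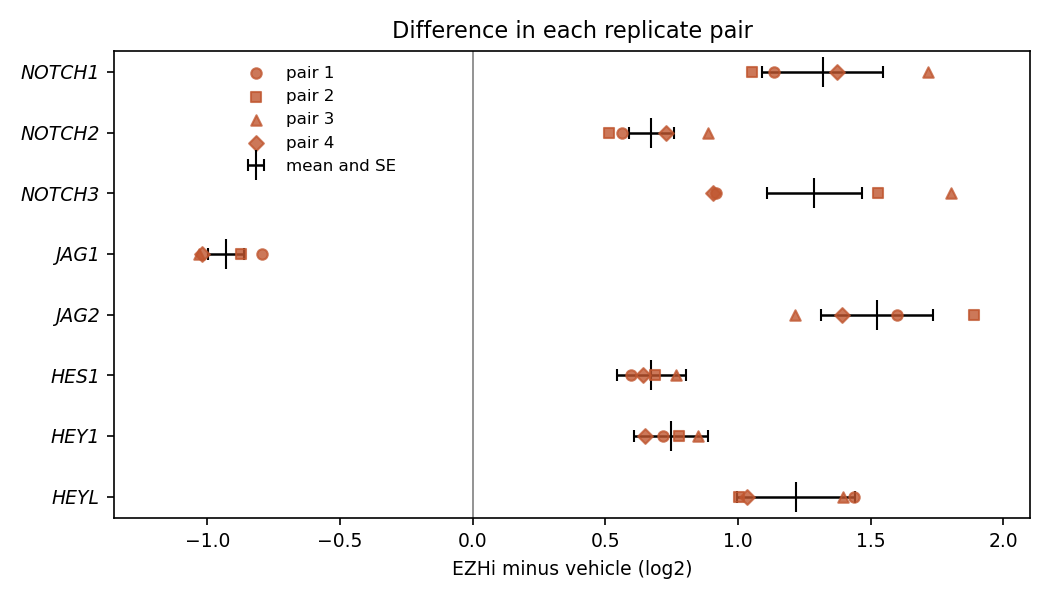
EZHi minus vehicle on the log2 scale (horizontal axis) for each gene, with 1 symbol per replicate pair and a black cross for the mean difference and its SE. The SE is that of the limma fit without the replicate block, so it does not measure the spread of the pairs. JAG1 lies between -1.03 and -0.79, and the pairs of the other genes lie above 0, those of HES1 between 0.60 and 0.77 and those of JAG2 between 1.22 and 1.89.

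The genes with a profile most like that of HEYL were sought by the root-mean-square distance between log2 values centred on their mean over the 8 libraries. They were GCNT1 (distance 0.20), GALNT7 (0.215), NAT8 (0.216), BICC1 (0.227) and GABRD (0.232). Within the family HEY1 was the nearest, at rank 165 with a distance of 0.348, followed by JAG2 at rank 270 and NOTCH3 at rank 350. HES1, NOTCH2 and NOTCH1 were at ranks 660, 880 and 1314, and JAG1, which differed in the opposite direction, was at rank 20067. These distances include the difference between the groups and are a description over 8 libraries.

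The remaining machinery of the pathway was listed by role, 74 genes in all, of which 71 were in the table and 68 were tested. Of these, 14 rose, 3 fell and 51 were not called, where 8.85% of all genes tested were called higher and 4.27% lower. The list was chosen with earlier results of these data known, so these counts are a description only. The median difference of the 68 genes was -0.014, and that of all genes tested was -0.0077. With the replicate number as a block 20 were called higher and 14 lower, where 14.9% and 15.1% of all genes tested were. Without EZHi replicate 1 the number called higher was 9. When the values were centred on genes of at least 10 FPKM, 88.9% of all calls were in the higher direction, against 67.5% here, and 1 pathway gene instead of 3 was called lower.

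Of the 4 other ligands, 3 rose by the limma fit. DLL3, a ligand that inhibits Notch within the same cell, was higher by 0.74 (SE 0.18, adjusted p = 0.024), DLK2, an atypical ligand, by 0.44 (SE 0.11, adjusted p = 0.023) and DLL4, the ligand known from sprouting vessels, by 0.35 (SE 0.10, adjusted p = 0.0409). Each of these had no overlap between the groups, but the calls were not firm. The call of DLL4 was lost in each of the 8 fits without 1 library (difference 0.29 to 0.38), that of DLL3 without vehicle replicate 1 or 4 or EZHi replicate 1 or 2 (0.67 to 0.77), and that of DLK2 without vehicle replicate 2 or EZHi replicate 1 or 2 (0.40 to 0.41). The atypical ligand DLK1, a fetal liver gene, was far more abundant, at 385 FPKM in vehicle and 490 FPKM in EZHi. Its difference of 0.35 did not pass the test (adjusted p = 0.266) but did with the replicate block (adjusted p = 0.0103).

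Of the 9 genes of receptor cleavage, 1 rose and none fell. It was APH1B, a subunit of gamma-secretase, with 1.19 (SE 0.11, limma adjusted p = 0.000103), from 1.63 to 3.72 FPKM. ADAM10, the protease of the first cleavage, had a difference of -0.17 (adjusted p = 0.241). With the replicate block 2 of the 9 were called higher and 2 lower, ADAM10 among the lower ones (limma adjusted p = 0.0143). Of the 8 genes of receptor glycosylation, 2 rose, and 3 were called higher with the replicate block. MFNG, a Fringe enzyme that lengthens sugars on the receptor and alters which ligands activate it, was higher by 1.08 (SE 0.20, adjusted p = 0.00614), and GXYLT2, which adds xylose to the receptor, by 0.60 (SE 0.11, adjusted p = 0.00587). APH1B, MFNG and GXYLT2 were called in each of the fits without 1 library.

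Of the 11 tested genes of ligand and receptor endocytosis and ubiquitination, 1 rose and 1 fell by the limma fit. With the replicate block 3 were called higher and 2 lower. The calls added were NEURL1B and DTX4, higher (limma adjusted p = 0.0021 and 0.0147), and NUMB, lower (adjusted p = 0.0335). NEURL1, a ubiquitin ligase that acts on ligands, was higher by 0.72 (SE 0.18, adjusted p = 0.027), from 0.283 to 0.465 FPKM. Its call was lost without vehicle replicate 2 or 4 or EZHi replicate 1, 3 or 4 (difference 0.60 to 0.75). ITCH, a ubiquitin ligase that acts on receptors, was lower by 0.36 (difference -0.36, SE 0.08, adjusted p = 0.0117), a call that was lost when the values were centred on genes of at least 10 FPKM.

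RBPJ itself, through which the receptors reach DNA, was abundant and had a difference of -0.09 (limma adjusted p = 0.472), at 51.5 FPKM in vehicle and 48.5 FPKM in EZHi. Of the 11 genes of the nuclear complex, 1 rose and 1 fell. MAML3, a Mastermind coactivator, was higher by 1.17 (SE 0.10, adjusted p = 6.7e-05), from 0.232 to 0.523 FPKM. The more abundant Mastermind genes MAML1 and MAML2 had differences of -0.12 and -0.06 (adjusted p = 0.283 and 0.857). SNW1, a cofactor of RBPJ and of splicing, had a difference of -0.23 (SE 0.06, adjusted p = 0.0416). Its call was lost in the fits without any 1 library other than EZHi replicate 3 (difference -0.24 to -0.19).

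The corepressors, which keep target genes off in the absence of a Notch signal or act with HES and HEY proteins, held the largest differences of the pathway list. Of 15 tested, 5 rose and 1 fell, and with the replicate block 5 were called higher and 6 lower. CTBP2 was higher by 2.24 (SE 0.31, limma adjusted p = 0.00103), with vehicle values of 2.86, 3.17, 2.80 and 2.58 and EZHi values of 5.44, 5.90, 4.37 and 4.66. The 4 EZHi libraries were well above the vehicle libraries but differed among themselves, replicates 1 and 2 being the higher ones, as for JAG2.

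The Groucho-family corepressors TLE4 (1.71, SE 0.19, limma adjusted p = 0.000289), TLE2 (1.15, SE 0.18, adjusted p = 0.00275) and TLE3 (0.45, SE 0.08, adjusted p = 0.0033) rose, as did L3MBTL3, a partner of RBPJ (1.05, SE 0.10, adjusted p = 0.00013). TLE4 and CTBP2 started at 0.350 and 0.282 FPKM in vehicle. TLE1 and TLE5 stood at 133 and 106 FPKM and had differences of -0.19 and -0.09 (adjusted p = 0.391 and 0.462). TLE1 was lower in each of the 4 replicate pairs and was called lower by limma with the replicate block (adjusted p = 0.0128). NCOR1, a large corepressor that recruits histone deacetylases, had a difference of -0.30 (SE 0.06, adjusted p = 0.00693). The 6 calls among the corepressors by the fit without the block were made in each of the fits without 1 library. That of NCOR1 was lost with quantile normalization.

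Of the other HES and HEY genes, 3 were tested and none was called (1 of the 3 had an unadjusted limma p under 0.05, and 1 was called lower with the replicate block). HES4 had the largest difference, -0.28 (adjusted p = 0.0943, 0.0236 with the replicate block), at 26.9 FPKM in vehicle. HES6, at 63.6 FPKM in vehicle, had one of 0.03 (adjusted p = 0.927). Of the 7 other targets 1 rose. It was BHLHE41, a repressor of the same protein class, with 0.54 (SE 0.13, limma adjusted p = 0.0268) at 0.113 FPKM in vehicle, and its call was lost without vehicle replicate 1, 3 or 4 or EZHi replicate 1, 2 or 4 (difference 0.44 to 0.54). With the replicate block 2 of the 7 were called higher and 2 lower. The lower ones were BHLHE40 and ID1 (limma adjusted p = 0.0019 and 0.0070). Their differences were -0.43 and -0.29, at 163 and 190 FPKM in vehicle. NRARP, a direct target that feeds back on Notch, had a difference of -0.14 (adjusted p = 0.684) and was higher in 1 of 4 pairs.

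**Figure D4:**
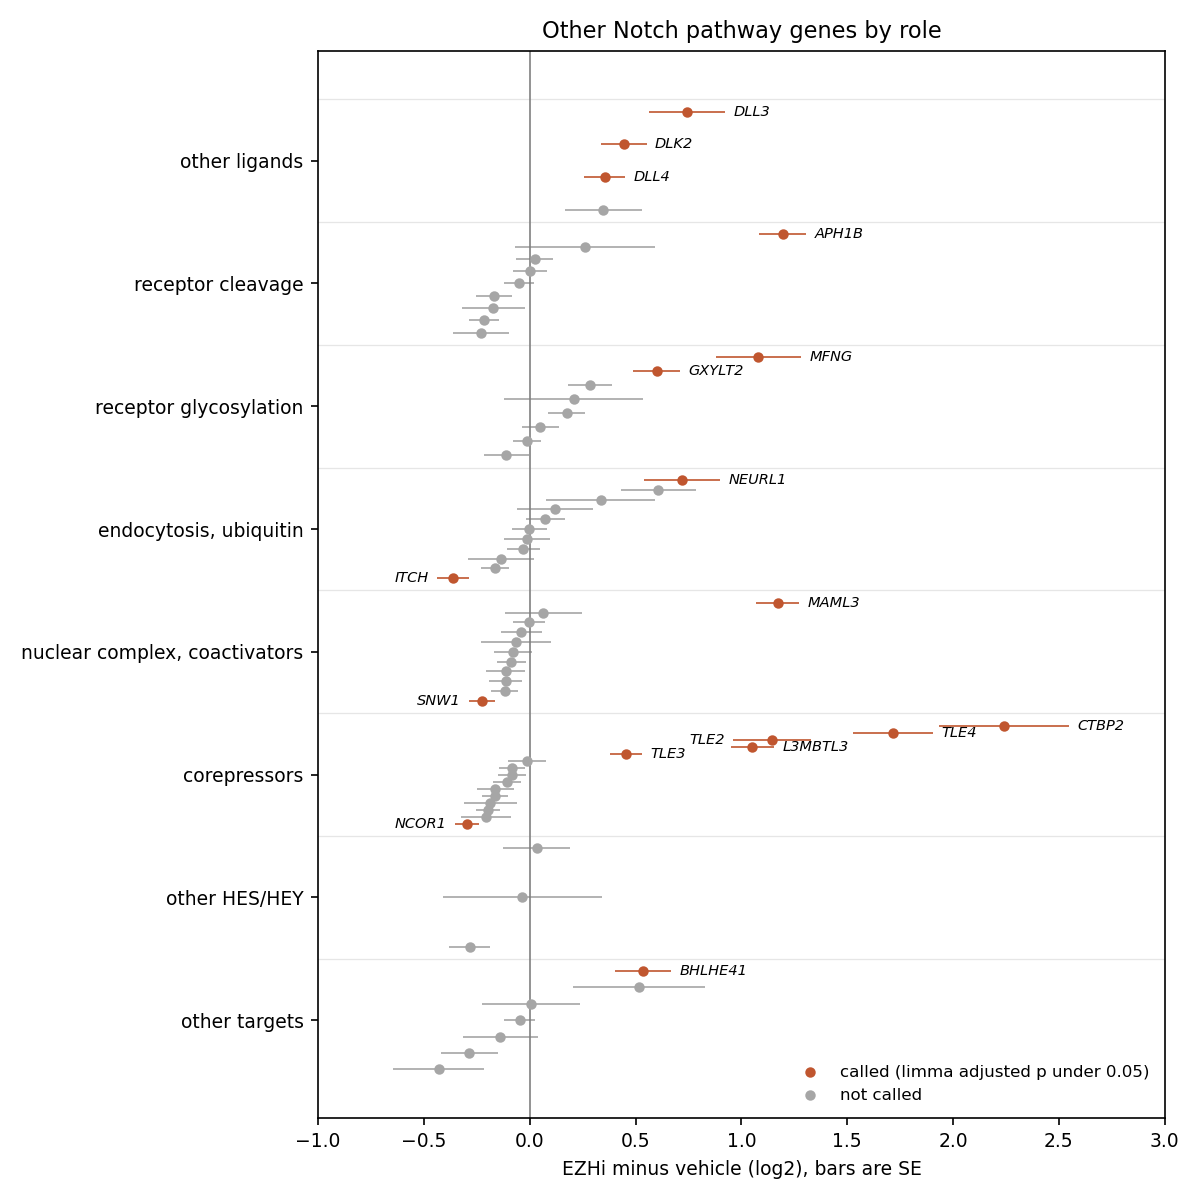
EZHi minus vehicle on the log2 scale (horizontal axis, bars are the SE) for the 68 tested pathway genes outside the family, grouped by role, with called genes named in orange and the others in grey. Of the 17 called genes 14 lie to the right of 0 and 3 (ITCH, SNW1 and NCOR1) to the left, and the corepressors CTBP2 and TLE4 lie farthest right, at 2.24 and 1.71.

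Markers of other cell types were examined, because NOTCH1, DLL4, HEY1 and HEYL are also genes of vessels. Endothelial markers, 5 of 6 in the table, summed to 3.68 to 4.87 FPKM in vehicle and 7.66 to 11.9 FPKM in EZHi, without overlap. CDH5, VWF and TIE1 rose, PECAM1 was at 1.60 FPKM in vehicle and 1.65 FPKM in EZHi, and TEK was near the floor of the table in both groups. The part of these markers in the Notch differences was not tested. Cholangiocyte markers, 7 of 8 in the table, summed to 721 to 1127 FPKM in vehicle and 909 to 1231 FPKM in EZHi, with none called (2 were called higher with the replicate block, and 1 had an unadjusted limma p under 0.05). Among them KRT19 was the highest, at 379 FPKM in vehicle, and AQP1 was at 0.022 FPKM. Mesenchymal markers, 4 of 6 in the table, summed to 32.8 to 42.1 and 41.9 to 46.9 FPKM, from ACTA2 at 24.5 FPKM in vehicle down to COL3A1 at 0.051 FPKM. Blood markers, 2 of 5 in the table, summed to 0.655 to 1.42 and 0.665 to 1.14 FPKM, with CD14 at 0.990 and CD3E at 0.051 FPKM in vehicle.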

How the data were processed

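RNA-seq was run on HepG2 cells (4 EZHi and 4 vehicle libraries), with paired reads of 150 bp. The study describes its replicates as independent, with group and replicate read from the titles of the samples. By the study's methods, the authors aligned reads to hg38 with HISAT2, counted them per gene with HTSeq in union mode without strand at an alignment quality of at least 10, removed genes with fewer than 10 reads in all, and applied the regularized logarithm of DESeq2 and a correction for mean transcript length. The submitters' processing notes name HISAT2 2.2.1, HTSeq 0.9.1 and DESeq2 1.40.2, and the methods give other versions of HISAT2 and DESeq2, so the versions used are uncertain. The deposited values, in a table called FPKM, proved to be log2 values, since they ran from -6.81 to 19.01. Of 25604 rows 1 repeated a gene and was dropped. Symbols were those of the table, and positions and transcript lengths came from GENCODE release 44, in which 25594 genes were found.

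Read depth is unknown, because the values are normalised for it, so no counting interval is given. Linear values times transcript length in kilobases added up to nearly the same total in each library, and dividing the linear value by 25.6, the mean of these totals (range 24.4 to 27.3, counted in units of 10 to the power 6), gave an estimated FPKM. The 20153 genes with a mean of at least 0.1 estimated FPKM were fitted with limma 3.58.1 in R 4.3.3 (two-sided moderated test with a variance trend, group as the only term), with Benjamini-Hochberg adjustment over all of them. Same-numbered libraries deviated together from their group means over genes (correlations 0.310, 0.558, 0.634 and 0.216), so the numbers were taken to pair the samples, and a fit with the replicate number as a block was run as an alternative. The others were a higher filter, no filter, a pseudocount of 0.5, 3 scalings, no variance trend and the omission of each library. Levels were also recomputed without length correction and, chosen after seeing the data, with the longest transcript.

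The genes of the family and the lists of pathway genes and markers were chosen with earlier results of these data known. Named were the members of the family, each pathway gene called, the pathway gene of largest change in a role with no call, the 5 genes most like HEYL and the highest and lowest marker of each list. CDH5, VWF, TIE1 and several uncalled pathway genes were added after their values were seen. Promoter windows were taken from RefSeq (GRCh38.p14). No protein sequence was used here.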

Additional observations from a re-analysis of the deposited data

Results flagged for a closer look

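Single libraries that stood far from the other 3 of their group were sought in 50 groups (8 family and 17 called pathway genes under both conditions) by the ratio of the gap to the range of the group. The ratio exceeded Dixon's 95% critical value in 5 groups, where chance gives about 2.5, and in none of the groups of the family itself. DLL4 in vehicle replicate 2 was at 5.65 against 5.90 to 5.91 in the others (ratio 0.983), and its call was lost without that library, as it was without any other. APH1B in EZHi replicate 3 was at 6.84 against 6.47 to 6.51 (0.901). MFNG in EZHi replicate 3 was at 8.39 against 7.58 to 7.68 (0.881). ITCH in EZHi replicate 2 was at 8.63 against 8.74 to 8.76 (0.880). L3MBTL3 in vehicle replicate 2 was at 5.82 against 5.48 to 5.53 (0.852). The calls of APH1B, MFNG, ITCH and L3MBTL3 were also made in each fit that left out 1 library.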

How the results depend on the processing

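The 8 family genes were called in each setting in which they were tested, with no change of direction. The family was selected on these same libraries, so this describes the processing only and lends its differences no further weight. With a filter of 1 FPKM, JAG2 and HEYL were no longer tested and 6 of 6 were called. Over the fits without 1 library the difference of NOTCH1 ran from 1.13 to 1.47. With quantile normalization the difference of JAG1 was -0.83, a move larger than the spread between its replicates. Over all genes, 2644 were called, with 1579 at the filter of 1 FPKM, 6051 with the replicate block and 1811 to 2571 in the fits without 1 library. Pathway genes called higher numbered 14, against 9 with the filter of 1 FPKM and 9 to 13 without 1 library. At that filter NEURL1, MAML3, CTBP2, TLE4 and BHLHE41 were no longer tested, and the other genes called higher kept their call. Those called lower numbered 3, against 1 with quantile normalization, 1 with centring on genes of at least 10 FPKM and 14 with the replicate block. Apart from these counts, the block ended none of the calls among the genes named. Of the 17 called pathway genes, 11 kept their call in each fit without 1 library and 6 did not (DLL3, DLL4, DLK2, NEURL1, SNW1 and BHLHE41), and these 6 and NCOR1 lost it with quantile normalization. The causes were not tested. Scaling moved the median difference of all genes from -0.0077 to between -0.060 and 0.088. Levels near 0.1 FPKM rest on few reads, and since depth is unknown their precision is judged from the replicates alone.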

Other observations

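A group of vessel genes was among those that differed in this hepatic line. CDH5, which encodes the cadherin of endothelial junctions, had values of 2.91, 2.50, 3.64 and 2.76 in vehicle and of 5.12, 4.30, 6.34 and 5.18 in EZHi, a rise of 2.28 (SE 0.39, limma adjusted p = 0.00411). TIE1, an endothelial receptor kinase, rose by 1.46 (SE 0.24, limma adjusted p = 0.00315), and VWF, a clotting protein of endothelium, by 1.45 (SE 0.26, limma adjusted p = 0.00537). Both were higher in 4 of 4 replicate pairs. PECAM1, a general endothelial surface protein, had a difference of 0.04 (limma adjusted p = 0.867) and was higher in 3 of 4 pairs. TEK, the receptor related to TIE1, was at 0.0068 FPKM in vehicle and 0.0070 FPKM in EZHi and was not tested. Members of 1 marker list therefore did not move alike, and they stood at most at 4.08 FPKM in EZHi.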
